A study of Mus musculus with 5 samples.

Results

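The NF-κB subunit and IκB inhibitor genes were followed in murine bone marrow plasma cells (PCs) after 3 days of culture and directly ex vivo. Members were all probe sets that the platform annotation assigns to a single gene among Nfkb2, Rel, Rela, Relb, Nfkbia, Nfkbib, Nfkbie, Nfkbiz and Bcl3. These were 18 probe sets of 9 genes, out of 34945 single-gene probe sets on the array. A further listed gene, Nfkb1, was not analysed here, because no probe set carries its symbol in the annotation used. Cultured PCs (3 samples) came from the bone marrow of C57BL/6J mice and were kept with ST2 cells, a murine stromal cell line, and the cytokine APRIL at physiological oxygen before being sorted by flow cytometry. Ex vivo PCs (2 samples) came from mice of the same strain and immunisation and gave RNA right after isolation. All mice had been immunised and boosted with NP-CCG in an oil adjuvant, and PCs were enriched magnetically, by removal of cells with B220 or CD49b and selection for high CD138, so that the ex vivo samples had no later sort. Experiment 1 gave 1 sample of each condition, and experiment 2 gave 2 cultured samples and 1 ex vivo sample. The sources used here give neither age nor number of mice, nor whether the last 2 cultures were separate, so p-values measure the spread between these samples, which may be technical.

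NF-κB factors are dimers of Rel family proteins that IκB proteins hold in the cytoplasm. In the canonical pathway the IKK complex marks IκBα, encoded by Nfkbia, for degradation, and dimers that contain RelA or c-Rel enter the nucleus. In the non-canonical pathway the kinase NIK drives processing of p100, encoded by Nfkb2, to p52, which pairs with RelB. APRIL binds BCMA and TACI, receptors of PCs that signal to NF-κB. Several family genes, Nfkbia and Nfkb2 among them, are NF-κB targets themselves and so form feedback loops. The arrays measured RNA, and neither protein degradation, processing nor nuclear entry.

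Because several family genes are regulated by the family, the stretches before their transcription starts were read for the κB motif. RefSeq promoter windows of the GRCm38.p6 build matched 7 of the 9 genes, and Relb and Nfkbiz were not matched. Of these 7 genes, Nfkb2, Rel, Nfkbia and Nfkbie held at least 1 match to the κB consensus on either strand in the 250 bases before a start. By gene, 4 of 7 held a match, against 8.23% of all 27025 genes with a window, and by window 6 of 9 did, against 7.25% of all 32851 windows. No match was found in these windows of Rela, Nfkbib and Bcl3. The windows of the first annotated Nfkb2 start and of Rel, Nfkbie and Nfkbia are shown because they hold the matches of genes whose array values are described next. Capitals mark bases in a match, and 11 capitals in a row are overlapping matches.
Nfkb2, chr19:46304487-46304736, plus strand: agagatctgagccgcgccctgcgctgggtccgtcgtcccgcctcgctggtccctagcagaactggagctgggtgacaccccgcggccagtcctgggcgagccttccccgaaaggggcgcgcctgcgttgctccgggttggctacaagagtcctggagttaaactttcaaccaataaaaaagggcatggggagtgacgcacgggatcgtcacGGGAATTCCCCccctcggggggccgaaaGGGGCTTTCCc
Rel, chr11:23770970-23771219, minus strand: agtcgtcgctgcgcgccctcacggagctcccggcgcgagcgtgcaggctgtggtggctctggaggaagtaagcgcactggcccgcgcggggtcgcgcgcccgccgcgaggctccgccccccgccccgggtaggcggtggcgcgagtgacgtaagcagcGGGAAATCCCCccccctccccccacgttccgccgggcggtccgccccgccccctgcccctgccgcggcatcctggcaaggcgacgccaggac
Nfkbie, chr17:45555450-45555699, plus strand: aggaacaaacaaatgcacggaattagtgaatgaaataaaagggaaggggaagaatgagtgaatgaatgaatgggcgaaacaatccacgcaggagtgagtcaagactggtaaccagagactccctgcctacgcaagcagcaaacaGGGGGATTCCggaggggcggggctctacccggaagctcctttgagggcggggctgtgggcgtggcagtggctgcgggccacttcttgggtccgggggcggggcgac
Nfkbia, chr12:55492648-55492897, minus strand: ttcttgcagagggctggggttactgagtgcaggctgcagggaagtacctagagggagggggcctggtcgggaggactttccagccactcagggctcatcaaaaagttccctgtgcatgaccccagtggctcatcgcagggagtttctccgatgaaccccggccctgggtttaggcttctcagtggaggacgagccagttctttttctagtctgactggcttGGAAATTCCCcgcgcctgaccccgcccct
The matched stretches began 39 and 11 bases before the start in Nfkb2, 92 in Rel, 106 in Nfkbie and 29 in Nfkbia. These matches are sequence descriptions and do not show binding.

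RNA was hybridized to Affymetrix mouse whole-genome arrays. Values are log2 of the deposited RMA intensity, whose array medians lay between 87.05 and 94.19. Transcripts of PC identity were bright in all samples, and 0 of 13 PC markers passed limma's test in either model. Without a block, 1 had an unadjusted p under 0.05, against 6.59% of all tested probe sets. Within experiments, 7 of the 13 were lower and 1 was higher in all 3 pairs of a cultured and an ex vivo sample. Over all tested probe sets these shares were 24.9% and 23.1%. The largest change with the experiment as a block was in Eaf2, at -0.66 (SE 0.11, BH-adjusted p = 0.0541, limma). The summed intensity of the PC markers was 74234 to 79230 in cultured and 78251 to 83665 in ex vivo samples. Markers of stromal cells summed to 7702 to 19077 in cultured samples and to 1160 to 1627 in ex vivo samples, and 15 of 22 tested were higher in culture with the experiment as a block. Their sum was above all ex vivo values in every cultured sample, and 10 of the 24 with a probe set, Cav1 and Col6a1 among them, were below an intensity of 50 in both ex vivo samples. Macrophage markers summed to 1807 to 2138 in cultured samples and to 2128 to 2489 in ex vivo samples, with 5 of 12 tested lower and 1 higher with the block. These ranges overlapped. The higher marker, Cd68, was the brightest of the list, at 10.05 to 10.53 in cultured and 9.65 and 9.31 in ex vivo samples (log2). Adgre1, a defining macrophage marker, was below 50 in all samples, and C1qa and C1qb were below 50 in the cultured samples. In bulk RNA, fewer cells of a type and less RNA per cell cannot be told apart.

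The 9 genes made up part of 18193 genes with a single-gene probe set. All 18 member probe sets were above an intensity of 50 in all 5 samples, and all were tested with limma over 30477 probe sets. In the model with culture alone, 0 member probe sets passed at an adjusted p under 0.05, against 0.0459% of all probe sets (0.0164% higher and 0.0295% lower). At an unadjusted p under 0.05 there were 2 of 18, against 6.59% of all probe sets. With the experiment as a block, 1 member probe set was lower in cultured PCs and 0 were higher. Over all probe sets this fit called 1.80%, with 0.561% lower and 1.24% higher. At an unadjusted p under 0.05 there were 7 of 18, 5 of them higher, against 18.5% of all probe sets. The single call was a probe set of Nfkbiz. Within experiments, 8 of 18 member probe sets had the cultured value above and 7 had it below in all 3 pairs of a cultured and an ex vivo sample, against 23.1% and 24.9% of all tested probe sets. For Nfkb2, Rel, Rela, Nfkbie and Bcl3, every probe set was higher in all 3 pairs. The 7 lower probe sets were 4 of Nfkbia and 3 of Nfkbiz, and probe sets of the same gene are not independent. Cultured and ex vivo values did not overlap in 6 member probe sets, with 3 above and 3 below, against 9.42% above and 10.6% below over all probe sets. The 3 above were of Nfkb2, Rela and Nfkbie, and the 3 below were all of Nfkbiz. The median absolute log2 fold change with the block was 0.34 for the members and 0.15 for all tested probe sets. For single values, an exact permutation test of 3 against 2 samples cannot give a two-sided p below 0.1.

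**Figure D1:**
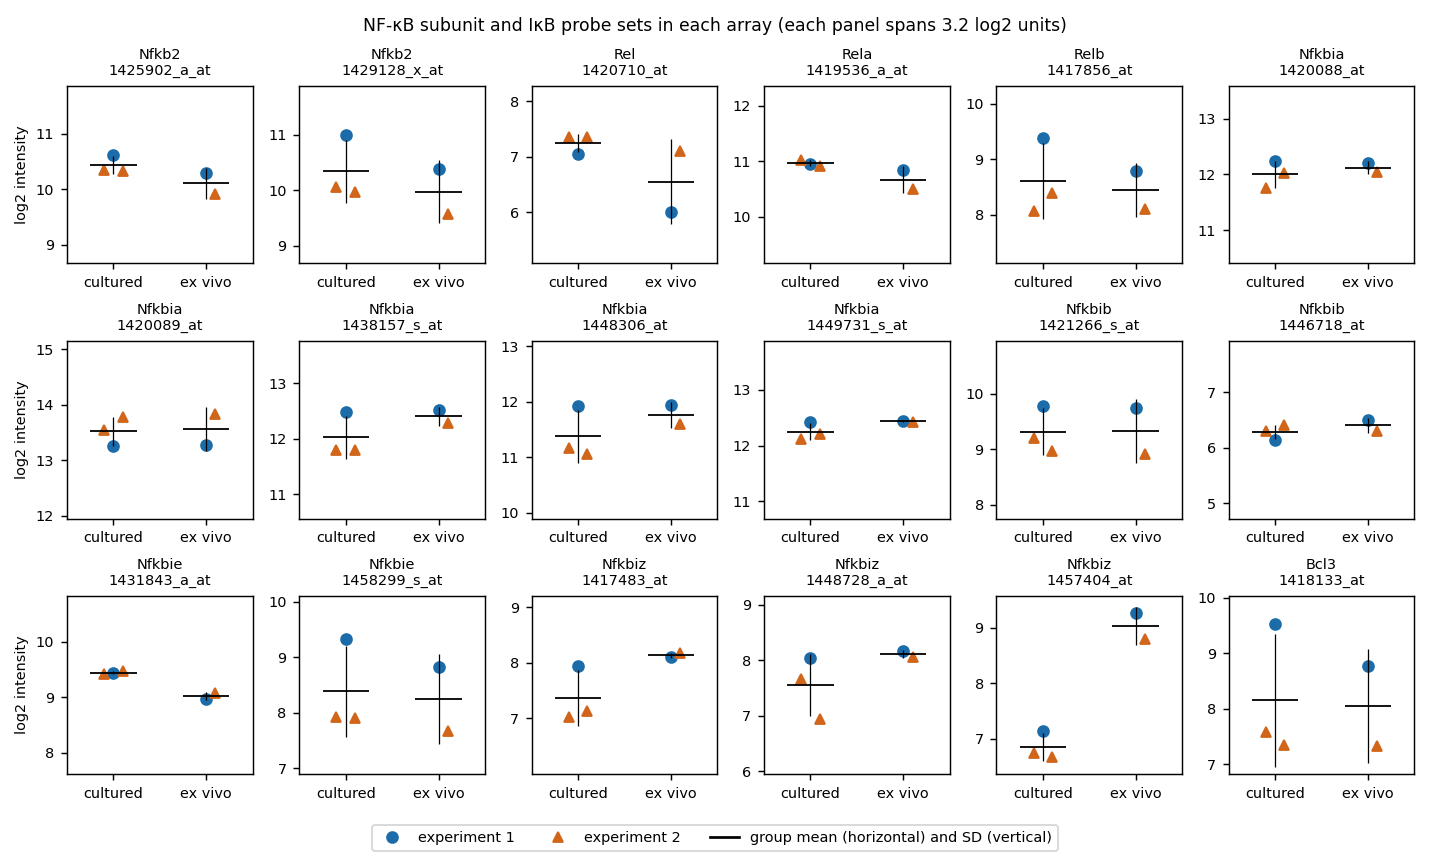
Log2 intensity of the 18 member probe sets in cultured (left, n = 3) and ex vivo (right, n = 2) PCs. Circles are samples of experiment 1 and triangles of experiment 2, horizontal bars are means and vertical lines SDs, and each panel has its own range of equal width. Nfkbiz 1457404_at lies at 6.67 to 7.13 in cultured samples, below 8.79 and 9.27 ex vivo.

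Nfkb2 encodes p100, which acts as an IκB until it is processed to the subunit p52. Its probe set 1425902_a_at was at 10.61 in the cultured sample of experiment 1, at 10.35 and 10.33 in those of experiment 2, and at 10.30 and 9.91 in the ex vivo samples of experiments 1 and 2. All cultured values lay above both ex vivo values, by as little as 0.03. The means were 10.43 ± 0.16 in cultured (SD, n = 3) and 10.10 ± 0.28 in ex vivo PCs (SD, n = 2). The log2 fold change with the block was 0.38 (standard error, SE, 0.11, 95% interval 0.12 to 0.65, adjusted p = 0.15 by limma with Benjamini-Hochberg, BH, adjustment). On 1429128_x_at, the values were 10.99 in the cultured sample of experiment 1, 10.06 and 9.97 in those of experiment 2, and 10.38 and 9.57 ex vivo. Here the groups overlapped, since the ex vivo sample of experiment 1 exceeded both cultured samples of experiment 2. The within-experiment changes were nevertheless all positive, at 0.61 in experiment 1 and 0.49 and 0.40 in experiment 2 (log2 fold change with the block 0.52, SE 0.11, BH-adjusted p = 0.0963). On both probe sets the cultured sample was the higher one of every pair, and neither change passed after adjustment.

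Rel encodes c-Rel, a subunit with a transactivation domain that is prominent in lymphocytes. Its only probe set, 1420710_at, was at 7.05 in the cultured sample of experiment 1, at 7.35 in both of experiment 2, and at 6.01 and 7.09 ex vivo. The ex vivo sample of experiment 1 stood apart as the lowest, and the ex vivo sample of experiment 2 overlapped the cultured range. That lowest value was an intensity of 64.49, below the median of its array (87.05) and near the intensity of 50 needed for testing. The change was 1.04 in experiment 1 and 0.25 with each cultured sample of experiment 2 (log2 fold change with the block 0.59, SE 0.19, 95% interval 0.11 to 1.07, BH-adjusted p = 0.202, limma). The difference between these changes, -0.79 (SE 0.13), did not pass limma's interaction test (BH-adjusted p = 0.654).

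Rela encodes p65, the main transactivating subunit of the canonical pathway. Probe set 1419536_a_at was at 10.96 in the cultured sample of experiment 1, at 11.02 and 10.92 in those of experiment 2, and at 10.84 and 10.50 ex vivo. The cultured values lay close together and above both ex vivo values. Their mean was 10.97 ± 0.05 (SD, n = 3), against 10.67 ± 0.24 ex vivo (SD, n = 2), and the log2 fold change with the block was 0.32 (SE 0.13, BH-adjusted p = 0.276, limma). Relb encodes the subunit that pairs with p52 in the non-canonical pathway. On 1417856_at it was at 9.38 in the cultured sample of experiment 1, at 8.07 and 8.39 in those of experiment 2, and at 8.79 and 8.11 ex vivo. Its groups overlapped, and the cultured samples of experiment 2 lay on both sides of their ex vivo sample. The log2 fold change with the block was 0.32 (SE 0.17, 95% interval -0.09 to 0.74, BH-adjusted p = 0.373).

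Nfkbia encodes IκBα, the inhibitor that is degraded and resynthesized first in the canonical response, and was covered by 5 probe sets. Values across these probe sets ran from 11.06 to 13.78 in cultured and from 11.60 to 13.84 in ex vivo PCs. The groups overlapped on all 5, and on 1449731_s_at the cultured sample of experiment 1 had the same value to 2 decimals as the ex vivo sample of experiment 2. On that probe set the values were 12.42 in the cultured sample of experiment 1, 12.12 and 12.21 in those of experiment 2, and 12.44 and 12.42 ex vivo in experiments 1 and 2, an order kept for the other probe sets. On 1438157_s_at they were 12.48, 11.81 and 11.81 in cultured PCs and 12.52 and 12.29 ex vivo. On 1448306_at they were 11.93, 11.16 and 11.06 in cultured PCs and 11.94 and 11.60 ex vivo. On all of these the cultured samples of experiment 2 were the lowest of the 5. On 1420088_at the values were 12.24, 11.75 and 12.02 in cultured PCs and 12.20 and 12.04 ex vivo, and on 1420089_at they were 13.26, 13.54 and 13.78 in cultured PCs and 13.28 and 13.84 ex vivo. On 1420089_at both samples of experiment 1 were the lowest. The 5 log2 fold changes with the block lay between -0.29 and -0.07, and the lowest adjusted p was 0.33 (limma). In experiment 1 the cultured and ex vivo samples differed by -0.05 to 0.04 on the 5 probe sets. In experiment 2 the differences were all negative, from -0.54 to -0.02. The widest 95% intervals, on 1438157_s_at and 1448306_at, ran from -0.64 to 0.05 and from -0.65 to 0.08.

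Nfkbib encodes IκBβ, which is degraded more slowly than IκBα. Probe set 1421266_s_at was at 9.78 in the cultured sample of experiment 1, at 9.21 and 8.96 in those of experiment 2, and at 9.74 and 8.92 ex vivo, so the groups overlapped over nearly their whole range. Its log2 fold change was 0.11 with the block (SE 0.13, BH-adjusted p = 0.687, limma) and -0.01 without it (SE 0.35, BH-adjusted p = 0.995). The other probe set, 1446718_at, was at 6.15 to 6.40 in cultured and 6.30 and 6.50 in ex vivo samples, with a log2 fold change of -0.13 with the block (SE 0.14). Nfkbie encodes IκBε, an inhibitor found mainly with dimers of RelA and c-Rel. On 1431843_a_at, it was at 9.44 in the cultured sample of experiment 1, at 9.41 and 9.46 in those of experiment 2, and at 8.97 and 9.07 ex vivo. The groups were tight and did not overlap, with means of 9.44 ± 0.03 in cultured (SD, n = 3) and 9.02 ± 0.07 in ex vivo PCs (SD, n = 2). The log2 fold change was 0.41 with the block (SE 0.11, BH-adjusted p = 0.135) and 0.41 without it (SE 0.12, BH-adjusted p = 0.588). On 1458299_s_at it was at 9.33 in the cultured sample of experiment 1, at 7.92 and 7.90 in those of experiment 2, and at 8.82 and 7.67 ex vivo. The groups overlapped on this probe set, and its log2 fold change with the block was 0.36 (SE 0.12, BH-adjusted p = 0.198).

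Nfkbiz encodes IκBζ, a nuclear IκB protein that works with p50 at a subset of inflammatory genes and is itself induced rapidly by inflammatory signals. Its probe set 1457404_at was at 7.13 in the cultured sample of experiment 1, at 6.75 and 6.67 in those of experiment 2, and at 9.27 and 8.79 ex vivo. Every cultured value lay at least 1.66 below every ex vivo value. The change was -2.13 in experiment 1 and -2.05 and -2.13 in experiment 2. This probe set fell by 2.11 on the log2 scale with the block (SE 0.11, 95% interval -2.37 to -1.84, BH-adjusted p = 0.00303, limma), which is 4.31-fold lower. Without the block the log2 fold change was -2.18 and did not pass (SE 0.23, BH-adjusted p = 0.089). With the block, the call held without either cultured sample of experiment 2.

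The other 2 Nfkbiz probe sets had smaller and less even changes. On 1417483_at the values were 7.95 in the cultured sample of experiment 1, 7.03 and 7.13 in those of experiment 2, and 8.10 and 8.17 ex vivo. On 1448728_a_at they were 8.04 in the cultured sample of experiment 1, 7.66 and 6.95 in those of experiment 2, and 8.15 and 8.06 ex vivo. Cultured values lay below ex vivo values on both, by as little as 0.16 and 0.02. The log2 fold changes with the block were -0.69 (SE 0.22, BH-adjusted p = 0.197, limma) and -0.48 (SE 0.26, BH-adjusted p = 0.389). On 1448728_a_at leaving out a cultured sample of experiment 2 gave -0.61 (first) or -0.26 (second) with the block. In experiment 1 these changes were -0.16 and -0.12, against -2.13 on 1457404_at. The annotation gives these 2 probe sets the same sequence record and 1457404_at another. The parts of the transcript they detect were not compared.

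Over the 5 arrays, the probe sets of other genes with the most similar mean-centred values to Nfkbiz 1457404_at were those of Hbb-b2, a haemoglobin gene, and C1qa, a complement gene of macrophages. Their root mean square differences were 0.16 and 0.17 on the log2 scale. Both were picked as the closest over all tested single-gene probe sets, and how many others lay nearly as close was not counted. Hbb-b2 was at 5.54 in the cultured sample of experiment 1, at 5.62 and 5.18 in those of experiment 2, and at 7.89 and 7.49 ex vivo. Its log2 fold change with the block was -2.20 (BH-adjusted p = 0.008, limma). C1qa was at 5.27 in the cultured sample of experiment 1, at 5.15 and 5.24 in those of experiment 2, and at 7.49 and 7.31 ex vivo. All cultured values of C1qa lay below both ex vivo values. In the cultured samples Hbb-b2 and C1qa were below an intensity of 50, whereas Nfkbiz 1457404_at stayed at 101.57 or above. Of the 12 tested macrophage markers, 5 were lower with the block, 6 did not pass and Cd68 was higher, at 0.89 (SE 0.14, BH-adjusted p = 0.0485). Among neutrophil markers 0 of 4 tested passed, with summed intensities of 421 to 434 in cultured and 525 to 857 in ex vivo samples. Of 12 tested B cell markers 1 passed with the block, Dntt, lower at -1.14 (BH-adjusted p = 0.0171, limma). Of 8 tested T and NK cell markers 1 passed, Gzma, lower at -0.84 (BH-adjusted p = 0.0404). Summed intensities overlapped for both lists. They were 16865 to 18557 in cultured and 18214 to 18435 in ex vivo samples for B cells. For T and NK cells they were 2127 to 3145 and 1946.5 to 3073. No marker list covered red blood cells. The part of any of these cell types in the change of Nfkbiz was not tested.

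Bcl3 encodes a nuclear IκB protein that binds p50 and p52 dimers. Its only probe set, 1418133_at, was at 9.53 in the cultured sample of experiment 1, at 7.59 and 7.34 in those of experiment 2, and at 8.78 and 7.33 ex vivo. Both samples of experiment 1 lay above all samples of experiment 2, so the groups overlapped widely. The mean was 8.15 ± 1.20 in cultured (SD, n = 3) and 8.05 ± 1.02 in ex vivo PCs (SD, n = 2). The change was 0.75 in experiment 1 and 0.26 and 0.01 in experiment 2 (log2 fold change with the block 0.40, SE 0.18, BH-adjusted p = 0.308, limma).

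**Figure D2:**
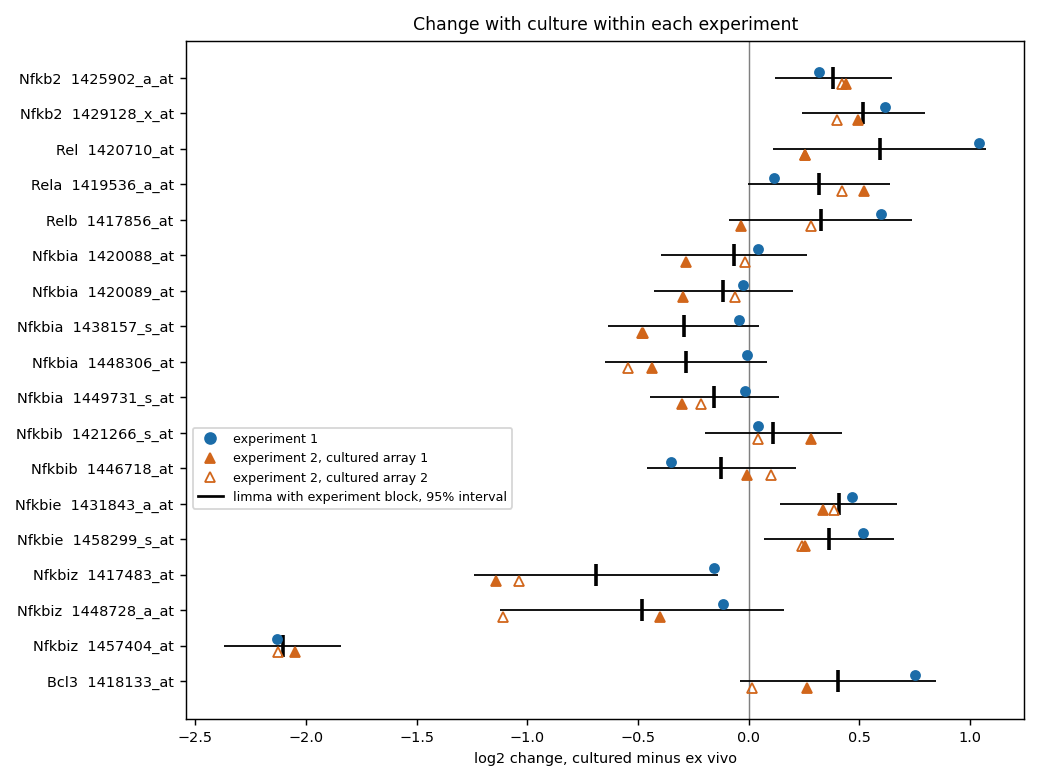
Log2 change in cultured relative to ex vivo PCs for each member probe set. Circles are experiment 1, triangles the 2 cultured samples of experiment 2, and bars with lines the limma estimate with the experiment as a block and its 95% interval. Nfkbiz 1457404_at lies at -2.13 to -2.05, and the other 17 estimates lie between -0.69 and 0.59.

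In the same model, which held culture and experiment, 7 member probe sets were lower and 1 was higher in experiment 2 than in experiment 1 (limma), against 13.8% and 13.0% of all tested probe sets and 26.8% in either direction. Values of the experiments did not overlap in 10 member probe sets, with experiment 2 below in 8 and above in 2, against 25.2% and 24.1% of all tested probe sets. In 11 of 18 the experiment difference exceeded the culture difference in absolute size, a share near the 67.4% of all tested probe sets. The number called lower or higher was 8 with all samples, 0 without the ex vivo sample of either experiment or the cultured sample of experiment 1, and 5 without the second cultured sample of experiment 2. Over all probe sets it was 8170 with all samples, 0 in each of the same 3 omissions and 4090 without that cultured sample, so this loss was not particular to the members. The median log2 difference, experiment 2 minus experiment 1, was -0.45 for the members and 0.01 for all tested probe sets.

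Bcl3 had the largest of these differences among the members, -1.80 (SE 0.18, BH-adjusted p = 0.00405). In cultured PCs its differences were -1.94 and -2.19, and in ex vivo PCs the difference was -1.45, so every sample of experiment 2 was lower than both of experiment 1. Relb had a difference of -0.95 (SE 0.17, BH-adjusted p = 0.014) and the Nfkb2 probe set 1429128_x_at one of -0.91 (SE 0.11, BH-adjusted p = 0.00587). Nfkbie was lower in experiment 2 on 1458299_s_at, at -1.30 (SE 0.12, BH-adjusted p = 0.00338), whereas its 1431843_a_at probe set had a difference of 0.04 (SE 0.11). The 2 Nfkbib probe sets also diverged, at -0.75 (SE 0.13, BH-adjusted p = 0.0122) on 1421266_s_at and 0.03 (SE 0.14) on 1446718_at. On Nfkbia, 1448306_at was lower in experiment 2, at -0.61 (BH-adjusted p = 0.0326), and 1420089_at was higher, at 0.47 (BH-adjusted p = 0.0443). The remaining call was the Nfkbiz probe set 1457404_at, at -0.45 (BH-adjusted p = 0.031). Among genes with several probe sets, the experiment differences spanned 0.58 in Nfkb2, 1.08 in Nfkbia, 0.78 in Nfkbib and 1.35 in Nfkbie, while the culture estimates with the block spanned 0.14, 0.23, 0.24 and 0.04. Nfkbiz went the other way, with a span of 0.01 in the experiment difference and 1.62 in the culture estimate over its 3 probe sets. The 0.01 holds for estimates over both conditions, and within conditions these probe sets differed. On 1417483_at, 1448728_a_at and 1457404_at the ex vivo differences were 0.07, -0.095 and -0.474. In cultured PCs they were -0.914 and -0.809, -0.379 and -1.09, and -0.39 and -0.468.

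A control ratio that is read for RNA quality also differed between the experiments, and what set it was not tested. Actb is measured by control probe sets near both ends of its transcript, and the log2 ratio of 3' over 5' signal was -0.12 to -0.01 in the 3 samples of experiment 2, against 0.77 in the cultured and 0.31 in the ex vivo sample of experiment 1. For Gapdh it was 0.28 to 0.34 in experiment 2 and 0.63 and 0.74 in experiment 1. The part of this ratio in the member differences was not tested. The 2 cultured samples of experiment 2 differed by a median of 0.10 over the members and by 0.14 over all tested probe sets, with the largest member difference, 0.71, on Nfkbiz 1448728_a_at.

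**Figure D3:**
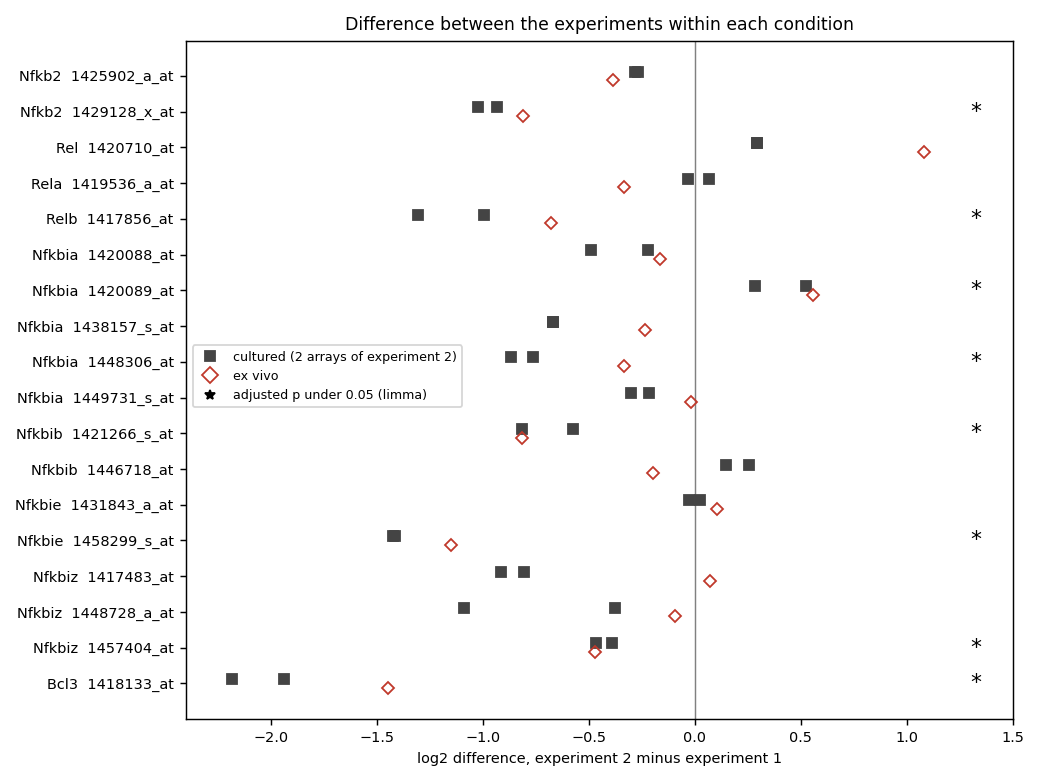
Log2 difference between experiment 2 and experiment 1 for each member probe set, in cultured PCs (squares, each sample of experiment 2 against that of experiment 1) and in ex vivo PCs (diamonds). Asterisks mark the 8 probe sets with an adjusted p under 0.05, and Bcl3 reaches -2.19 in cultured and -1.45 in ex vivo PCs.

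For the difference in culture change between experiments, limma's interaction term called 0 of 18 member probe sets after adjustment and 0.00% of all tested probe sets, and 2 member probe sets had p under 0.05 before adjustment, against 6.59% of all tested probe sets. These were Rel and Nfkbiz 1417483_at. On 1417483_at the change was -1.14 and -1.04 in experiment 2 and -0.16 in experiment 1, a difference of -0.93 (SE 0.16, BH-adjusted p = 0.654). This fit has 1 residual degree of freedom.

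Other genes of the pathway were taken from lists of upstream signalling, feedback regulators and target genes, with the brightest tested probe set for each gene. Over all 13578 genes tested in this way, the fit with the block called 1.13% higher and 0.611% lower. Without the block, 0 genes of the 3 lists passed limma's test, against 0.0147% higher and 0.0442% lower over all genes. At an unadjusted p under 0.05 there were 3 of 20 upstream genes, 1 of 14 feedback regulators and 8 of 22 target genes. The share over all tested probe sets was 6.59%, and that over genes was not computed. Of 24 listed upstream genes, 20 had a probe set in the annotation used and were tested, and Tnfsf13, Traf3, Chuk and Ripk1 were not analysed here. Of these 20 genes, 1 was higher with the block, 0 were lower and 19 did not pass. Traf1, an adaptor of TNF receptors that is also an NF-κB target, was at 9.60, 9.31 and 9.42 in cultured and at 8.85 and 8.61 in ex vivo PCs. It rose by 0.75 with the block (SE 0.11, BH-adjusted p = 0.0398), and its other probe set rose by 1.06 (BH-adjusted p = 0.034). With the block, 0 upstream genes passed when the 2 cultured samples of experiment 2 were averaged, when either was left out, or with no filter on low values. Of 14 feedback regulators, 0 passed with the block, and those with the largest estimates were Commd1, which promotes loss of RelA, at -0.49 (SE 0.13, BH-adjusted p = 0.144) and Tnfaip3, which encodes the deubiquitinase A20, at 0.49 (SE 0.23, BH-adjusted p = 0.332). The median log2 fold change with the block was 0.01 for upstream genes, 0.00 for feedback regulators and -0.05 for all genes.

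Of 32 listed NF-κB target genes, 29 had a probe set and 22 were bright enough to be tested, so the counts leave out dim targets. Of these 22 tested genes, 5 were higher with the block, 1 was lower and 16 did not pass. In all 3 pairs 11 were higher and 2 were lower, against 23.1% and 24.9% of all tested probe sets, which are not limited to 1 probe set per gene. The median log2 fold change of the tested target genes was 0.36. Ccl5, a chemokine gene, was at 9.04, 8.24 and 8.33 in cultured and at 6.00 and 6.23 in ex vivo PCs and rose by 2.48 (SE 0.23, BH-adjusted p = 0.013, limma with the block). Cxcl10, also a chemokine gene, was at 9.88, 8.79 and 8.78 in cultured and at 8.35 and 7.51 in ex vivo PCs and rose by 1.38 (SE 0.12, BH-adjusted p = 0.00975). Every cultured value of both chemokine genes lay above both ex vivo values. Ltb, which encodes lymphotoxin β, was at 9.12, 8.28 and 8.24 in cultured and at 7.86 and 7.22 in ex vivo PCs and rose by 1.13 (SE 0.11, BH-adjusted p = 0.0167). The remaining higher genes were Traf1 and Cd80, a costimulatory ligand gene chosen after its values were seen (1.04 on the brightest of its 4 probe sets, SE 0.13, BH-adjusted p = 0.0301). Vcam1, an adhesion molecule of stromal cells and macrophages that also stood on the macrophage list, was at 5.64, 6.58 and 6.44 in cultured and at 6.87 and 7.62 in ex vivo PCs and fell by 1.17 (SE 0.11, BH-adjusted p = 0.0147), and of its other 2 probe sets 1 fell by 2.33 (BH-adjusted p = 0.0312) and the other did not pass (-0.25, BH-adjusted p = 0.323). With the 2 cultured samples of experiment 2 averaged, 2 target genes were higher, and 3 and 2 were without the first and without the second of them. Vcam1 did not pass without the second. The stromal markers given above rose in the same samples, and their part in these changes was not tested.

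**Figure D4:**
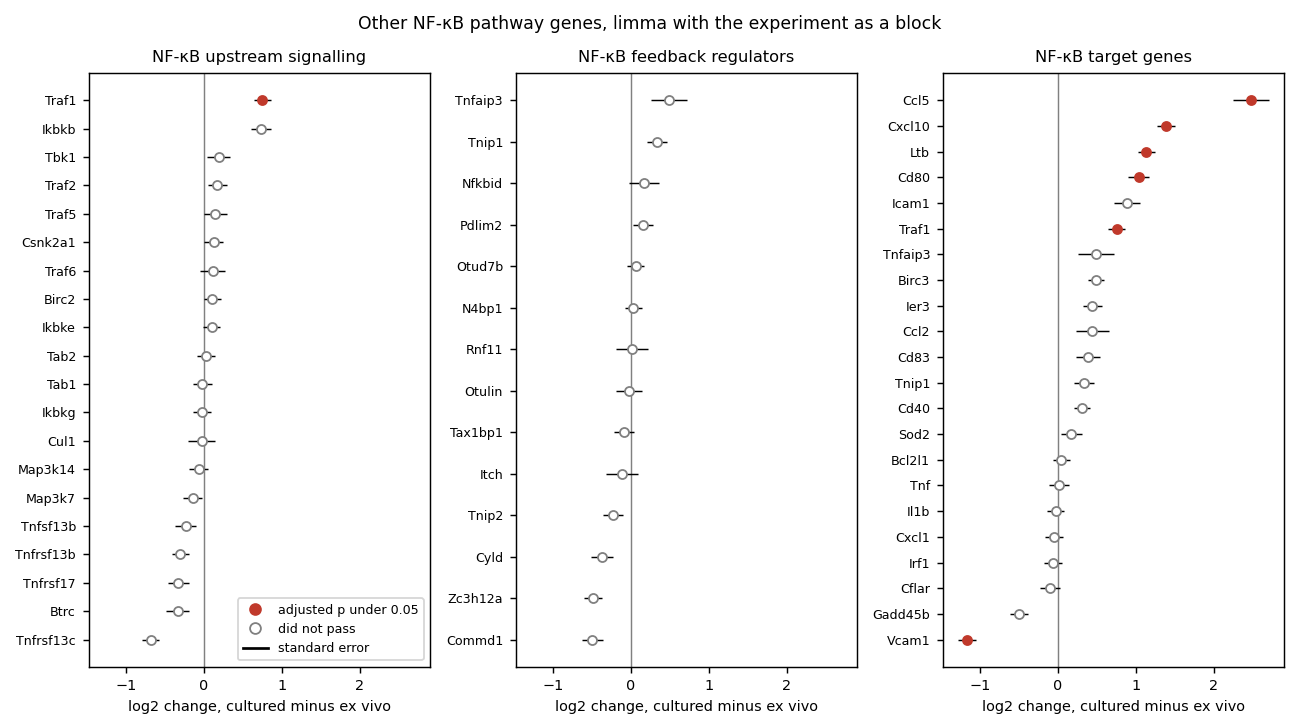
Log2 change in cultured relative to ex vivo PCs for the tested genes of 3 NF-κB pathway lists, from limma's fit that includes the experiment. Points show estimates, lines SEs and filled points genes with an adjusted p under 0.05, which number 1 upstream, 0 among feedback regulators and 6 among target genes, with Ccl5 the highest at 2.48.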

How the data were processed

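The authors' methods state that raw array signals were processed by RMA in the affy package, and GCOS stands in the submitters' processing notes. For versions and a genome build, nothing is given in the sources used here. What was deposited are intensities, linear and between 4.94 and 26947.2, of which log2 was taken. The arrays hold 45101 probe sets, including 64 controls that were dropped. Among the rest, 34945 carry 1 gene symbol, 932 several and 9160 none in the annotation used. Nfkb1 was not analysed here. Testing covered the 30477 probe sets that reached an intensity of 50 on 2 or more arrays. limma 3.58.1 (lmFit and eBayes, R 4.3.3) gave p-values, adjusted by Benjamini and Hochberg over all of them and called under 0.05.

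The methods name no covariate, so culture alone formed the first model. Sample titles give the experiment. Samples of 1 experiment deviated together from their group means (r = 0.75 in experiment 1, 0.56 and 0.72 in experiment 2, across probe sets, which are not independent replicates), and the experiment therefore served as a block in another fit. With only 2 ex vivo arrays, whose deviations are mirror images, the 3 values depend on each other. Every member probe set is named. From each pathway list up to 4 called genes with the largest change are named, or 2 where none was called. Members and lists were chosen with earlier results of these data known. The culture estimate, in the fits with and without the block, was tested on simulated data first. The experiment difference, the interaction and the alternative runs were not. Results were recomputed with the block, with both cultured arrays of experiment 2 averaged, under other filters, normalization and variance moderation, and without each array. Combinations of the block with a filter, a normalization or a moderation were chosen after seeing the data. With 5 arrays, precision is limited by their number.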

Additional observations from a re-analysis of the deposited data

Results flagged for a closer look

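On the Nfkbia probe set 1420088_at the experiments moved in opposite directions. Cultured minus ex vivo was -0.28 and -0.02 in experiment 2 and 0.04 in experiment 1, which gives a difference of -0.19 on the log2 scale between the mean changes. The cultured samples of experiment 2 differed from each other by 0.27. The interaction term of limma did not pass (BH-adjusted p = 0.821).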

How the results depend on the processing

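No member probe set was called higher under any alternative run. The replicate block, which pairs samples by experiment, raised the calls over all probe sets to 379 higher and 171 lower, against 5 and 9 without it. Without the block these totals were 11 and 10 after median centring, 7 and 11 after quantile normalization, 10 and 12 with an intensity trend, 19 and 12 with a floor of 100, 1 and 4 with no filter, and 0 and 0 with the cultured arrays of experiment 2 averaged. With the block they were 112 and 75 when averaged and 125 and 81 with no filter. With the block, 1 member probe set was lower, also with averaged arrays, no filter, a floor of 100, quantile normalization, median centring and an intensity trend. Leaving out each of the 5 arrays gave 0 to 1 without the block. With the block only the 2 cultured arrays of experiment 2 were left out in turn, which gave 1 to 1. The members that differed between experiments numbered 0 to 6 without single arrays. Upstream genes numbered 1 higher with the block (also with quantile normalization, median centring and trend), 2 with a floor of 100, and 0 with averaged arrays, no filter or either left-out array, and 1 was lower under floor of 100, quantile normalization, median centring and trend. Target genes numbered 5 higher and 1 lower with the block, 2 and 1 when averaged, 3 and 1 with no filter, and 5 and 1 under the other block settings. Without single arrays they were 0 to 1 higher and 0 to 0 lower without the block, and 2 to 3 higher and 0 to 1 lower with it. Nfkbib 1421266_s_at, at -0.01 without the block, was 0.11 with it (0.111 for no filter, floor and trend, 0.115 for quantile, 0.072 for median), 0.103 when averaged with or without the block, 0.003 after quantile normalization, -0.422 to 0.395 without single arrays, and 0.042 to 0.163 with the block. Signs also turned without single arrays in the model without the block, where the ranges were -0.039 to 0.772 for Nfkb2 1429128_x_at, -0.218 to 0.506 for Relb, -0.232 to 0.013 for Nfkbia 1420088_at, -0.315 to 0.242 for Nfkbia 1420089_at, -0.431 to 0.72 for Nfkbie 1458299_s_at and -0.622 to 0.825 for Bcl3. With the block, Nfkbia 1420088_at had -0.12 to 0.013. The causes were not tested.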
